A study of Homo sapiens with 6 samples.

Results

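JUP, PKP3 and CLDN1 encode proteins of the junctions that hold epithelial cells together. They are 3 of the 5187 genes listed in read counts from the established line Huh7, which derives from a human hepatocellular carcinoma, and were chosen by their fold changes between GABA and control libraries in these same counts. All 3 were found by symbol and all 3 passed the filter on low counts. The study had 3 libraries of Huh7 cells kept with GABA (gamma-aminobutyric acid, an amino acid best known as a neurotransmitter) for 24 h and 3 libraries of control cells without it, and asked which transcripts GABA changes in a series about metastasis of this cancer. Both groups grew in DMEM with fetal bovine serum and antibiotics, no group carried a genetic change, and the labels give no dose. The libraries of a group are numbered 1, 2 and 3 and named as biological replicates of 1 cell line.

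Desmosomes are button-like contacts that tie the keratin filaments of neighbouring cells to each other. Desmosomal cadherins cross the gap between the cells, plakoglobin (JUP) and plakophilins such as plakophilin-3 (PKP3) bind their tails, and desmoplakin joins these plaque proteins to keratin. Tight junctions are strands of claudins and related membrane proteins that seal the space between cells, and in the liver they close off the bile canaliculi. Claudin-1 (CLDN1) is a main claudin of hepatocytes and a receptor through which hepatitis C virus enters them. Plakoglobin is the closest relative of beta-catenin and also takes part in adherens junctions.

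With GABA, JUP and PKP3 were higher and CLDN1 was lower. JUP stood at 2.12 times its control level and PKP3 at 1.48 times, whereas CLDN1 stood at 0.739 times. Since the genes were chosen on this contrast, these values are a description without a test. In bulk RNA, a change in the number of cells that express a gene and a change in RNA per cell cannot be told apart.

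The files follow the comparison itself, which limits what any count of changed genes says. Across 4981 tested genes the order of rows and the p of the group difference had a Spearman correlation of 0.931, as a description, and JUP, PKP3 and CLDN1 stand at places 30, 516 and 566 in that order. Counts on the listed genes summed to between 7719243 and 8392945 in GABA libraries and between 7702666 and 8235028 in control libraries. These sums are not library depths. Control replicate 3 stood apart from the other control libraries on the second principal component, which held 9.31% of the variance. Listed mitochondrially encoded transcripts made up 9.11% of that library's counts on listed genes. The share was 6.66% to 7.04% in GABA libraries and 7.14% and 7.74% in control replicates 2 and 1. None of the 16 hepatocyte and hepatoma markers looked for, AFP and ALB among them, is a listed gene, so the label of the line could not be checked against them.

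The first member, JUP (ENSG00000173801), lies on chromosome 17 at positions 41754604 to 41786931 of the minus strand (hg38), with 19 exon blocks over 12 annotated transcripts. Its sequence upstream of the starts is shown because JUP had the largest difference of the 3 genes and RefSeq gives it 2 starts, which counts per gene cannot separate. Capitals mark matches to motifs searched on both strands in the 250 bases before each start. One motif was CACCTG, an E-box of the kind bound by SNAI and ZEB repressors. The others were the GC box, with letters GGGCGG, the CCAAT box, the TATA box, with letters TATAAA, and the site of TCF factors, with letters CTTTGAA. No motif overlapped another in the windows shown. Positions count upstream from the start to the nearer end of the match. Before the outer start, at position 41786711 (GRCh38.p14), a GC box lay 64 and another 134 bases upstream and a CCAAT box 190 bases upstream. Before the inner start, at 41785976, a pair of E-boxes in opposite directions lay 38 and 49 bases upstream.

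JUP outer start, nearer GC box (chr17:41786763-41786792, minus strand): cgtctcccccagGGGCGGagcttcgaggtg
JUP outer start, farther GC box (chr17:41786833-41786862, minus strand): ggaggcgaggctCCGCCCctccacgggaca
JUP outer start, CCAAT box (chr17:41786888-41786917, minus strand): cagtccccggggCCAATggcaagcggataa
JUP inner start, E-box pair (chr17:41786013-41786042, minus strand): cgactctggcccCACCTGccgagCAGGTGa

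CLDN1 (ENSG00000163347), the third member, lies on chromosome 3 at positions 190305701 to 190322475 of the minus strand, with 4 exon blocks over 2 annotated transcripts. Its upstream stretch is shown because the annotation puts CLDN16, another claudin gene, 65 bases away on the opposite strand, starting at position 190322541 inside the stretch. CLDN16 is not among the listed genes. In the 250 bases before the RefSeq start of CLDN1 a GC box lay 35 and another 83 bases upstream, in opposite directions, and none of the other 4 motifs was found.

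CLDN1 upstream stretch (chr3:190322476-190322696, minus strand): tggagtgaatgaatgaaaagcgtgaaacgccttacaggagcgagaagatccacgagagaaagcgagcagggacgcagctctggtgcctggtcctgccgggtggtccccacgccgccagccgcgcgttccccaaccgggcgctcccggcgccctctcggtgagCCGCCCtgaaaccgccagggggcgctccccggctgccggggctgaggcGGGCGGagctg

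Of 35116 promoter windows of 250 bases in the same RefSeq table, 42.6% held a GC box, 32.0% a CCAAT box, 17.5% this E-box, 10.7% a TATAAA and 3.80% a CTTTGAA. The GC content was 63.6% before the outer JUP start, 66.0% before the inner one and 68.8% before CLDN1, where the median window had 58.0%. The ratio of observed to expected CpG was 0.687, 0.50 and 0.948 in the same order, against a median of 0.558. A match describes the letters and does not show a bound site. PKP3 (ENSG00000184363) lies on chromosome 11 at positions 392614 to 404908 of the plus strand, with 15 exon blocks over 11 transcripts. The exons of the 3 genes overlap no exon of another annotated gene on either strand, and 0 of their 5161, 3905 and 3614 stretches of 50 bases (JUP, PKP3 and CLDN1) occur in the transcripts of another gene. Reads of JUP are thus separable from those of its relative beta-catenin at that length, although the read length is not given in the sources used here.

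JUP had 1017, 962 and 1080 counts in GABA replicates 1, 2 and 3, against 523, 472 and 440 counts in control replicates 1, 2 and 3. Scaled by TMM to CPM, which here is relative to a library's counts on the listed genes, these were 131, 124 and 127 CPM with GABA and 63.5, 61.1 and 56.0 CPM in controls. The groups did not overlap, and the lowest GABA library was far above the highest control library. The means were 127 ± 3.17 CPM with GABA and 60.2 ± 3.85 CPM in controls (SD, n = 3 each), a log2 fold change of 1.08 ± 0.08 (SE). By absolute log2 fold change it was number 427 of the 4981 tested genes, 91.4% of which had a smaller one.

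PKP3 had 1053, 1064 and 1087 counts in GABA replicates 1 to 3, and 755, 772 and 619 counts in control replicates 1 to 3. In CPM it stood at 135, 137 and 128 with GABA, against 91.6, 99.97 and 78.7 in controls. Here too every GABA library lay above every control library, but the controls spread more widely. The log2 fold change was 0.57 ± 0.09 (SE), with means of 134 ± 4.80 CPM with GABA and 90.1 ± 10.7 CPM in controls (SD, n = 3 each). Among tested genes, 69.9% had a smaller absolute change.

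CLDN1 had 2817, 2690 and 2765 counts in GABA replicates 1 to 3, and 3500, 3542 and 4067 counts in control replicates 1 to 3. The scaled values were 362, 348 and 326 CPM with GABA, against 425, 459 and 517 CPM in controls. All 3 GABA libraries lay below all 3 control libraries, and control replicate 3 was the highest. Means of 345 ± 17.9 CPM with GABA and 467 ± 46.7 CPM in controls (SD, n = 3 each) gave a log2 fold change of -0.44 ± 0.08 (SE). This change was near the middle of the list, with 55.9% of tested genes smaller in absolute value and a median absolute log2 fold change of 0.40 over all tested genes (quartiles 0.28 and 0.63).

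**Figure D1:**
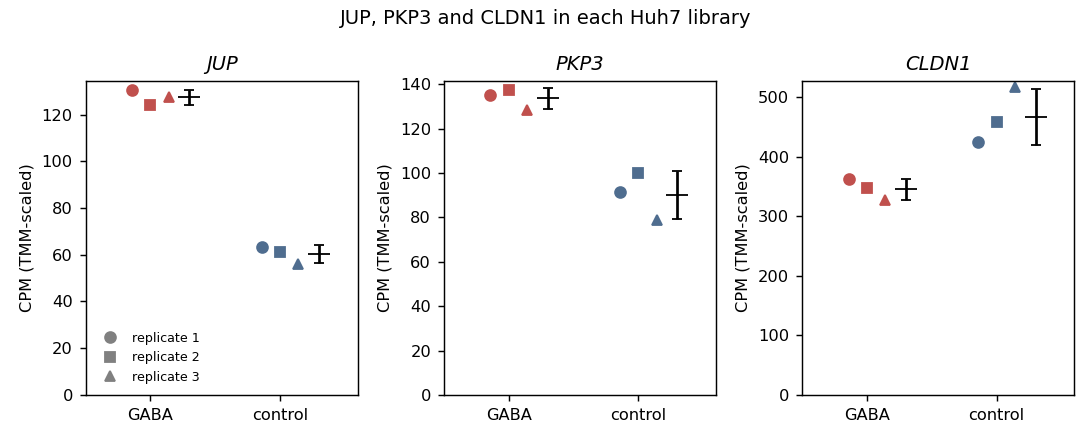
CPM (TMM-scaled, relative to the listed genes, linear axis from 0) of JUP, PKP3 and CLDN1 in each library, with GABA libraries on the left and control libraries on the right of each panel; symbols mark the replicate number, and the black bar beside them is the mean ± SD of 3 libraries. JUP and PKP3 lay higher in the GABA libraries and CLDN1 lower, with no overlap, and control replicate 3 (triangle) was the control farthest from the GABA libraries for each gene.

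The groups thus did not overlap in 3 of 3 genes, where 92.5% of all tested genes showed no overlap either, so the absence of overlap was common to most listed genes. Control replicate 3 was the control farthest from GABA in each gene, at 0.898, 0.822 and 1.17 times the mean of the other control libraries for JUP, PKP3 and CLDN1. It was also the farthest over all tested genes on the first principal component, which held 79.9% of the variance. Its score there was 25.25, against 20.5 and 19.5 for control replicates 1 and 2, so this was not particular to the 3 genes. Without it the log2 fold changes were 1.03 ± 0.07, 0.48 ± 0.07 and -0.36 ± 0.05 (SE). The directions were therefore the same without that library and the values somewhat smaller. The part of its higher mitochondrial share among counts on listed genes in these levels was not tested.

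The ratio of 2 genes within a library does not depend on how libraries are scaled. Counts of JUP per count of CLDN1 were 0.361, 0.358 and 0.391 in GABA replicates 1 to 3, against 0.149, 0.133 and 0.108 in control replicates 1 to 3. The mean ratio with GABA was 2.84 times that in controls, or 2.62 times without control replicate 3. PKP3 per CLDN1 was 0.374, 0.396 and 0.393 with GABA and 0.216, 0.218 and 0.152 in controls, a mean ratio 1.98 times as high with GABA. JUP per PKP3 was 0.966, 0.904 and 0.994 with GABA and 0.693, 0.611 and 0.711 in controls. JUP and PKP3 thus also differed from each other in the size of their change. No ratio overlapped between the groups. The ratios to CLDN1 could not overlap, because JUP and PKP3 lay above and CLDN1 below control in every GABA library. Since the genes were chosen on this contrast, the ratios are a description and add no separate evidence.

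**Figure D2:**
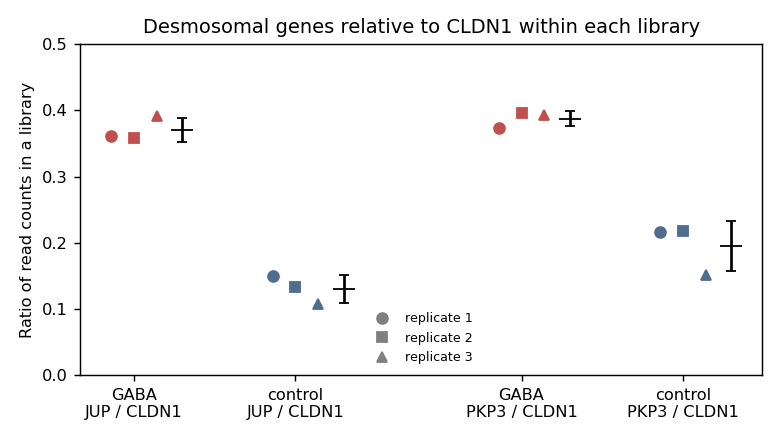
Read counts of JUP (left) and PKP3 (right) divided by those of CLDN1 in the same library, with GABA before control for each ratio; symbols mark the replicate number and bars the mean ± SD of 3 libraries. The JUP ratio averaged 0.370 with GABA and 0.130 in controls, and the PKP3 ratio 0.387 with GABA and 0.195 in controls.

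Libraries of a group varied less with GABA than in controls for each gene. The coefficient of variation of JUP was 2.49% among GABA libraries and 6.39% among controls, that of PKP3 was 3.59% and 11.9%, and that of CLDN1 was 5.18% and 10.0%, each with GABA first. Other tested genes within 1.5-fold of JUP's mean level, 1141 in all, had a median of 4.53% with GABA and 8.74% in controls. The wider spread of controls was thus shared with genes of like level. Over listed genes, chi-square per degree of freedom between controls was 17.8 and 25.7 for pairs with control replicate 3. It was 5.38 for control replicates 1 and 2, and 2.70 to 4.39 between GABA libraries. PKP3 in controls was more variable than 75.1% of 1187 genes of like level, and CLDN1 with GABA more than 85.1% of 476 such genes.

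Between genes, levels were compared per kilobase of exon (the union of annotated exons, 4942 bases for JUP, 3787 for PKP3 and 3663 for CLDN1). CLDN1 had the highest level, at 94.2 ± 4.88 CPM per kb with GABA and 127 ± 12.8 in controls. PKP3 came next with 35.3 ± 1.27 CPM per kb with GABA and 23.8 ± 2.83 in controls, and JUP last with 25.8 ± 0.64 and 12.2 ± 0.78 (SD, n = 3 each). This order held in all 6 libraries, and the levels of neighbouring genes in the order did not overlap within either group. Per kb, CLDN1 had 3.45 to 3.77 times the level of JUP in GABA libraries and 9.03 to 12.5 times in control libraries. PKP3 had 1.31 to 1.44 times the level of JUP with GABA and 1.84 to 2.13 times in controls. Exon lengths are the same in every library, so these ratios change between libraries just as the count ratios above. The smaller distance between CLDN1 and the plaque genes in every GABA library follows from the choice of the genes.

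Among the 22 listed genes of the desmosome, claudin, tight junction scaffold and adherens junction lists, CLDN1 was 3rd by level per kb with GABA and 2nd in controls. PKP3 was 5th with GABA and 8th in controls, and JUP 7th with GABA and 11th in controls. AJUBA, a LIM protein at adherens junctions, was 1st in both groups at 132 CPM per kb with GABA and 173 in controls.

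**Figure D3:**
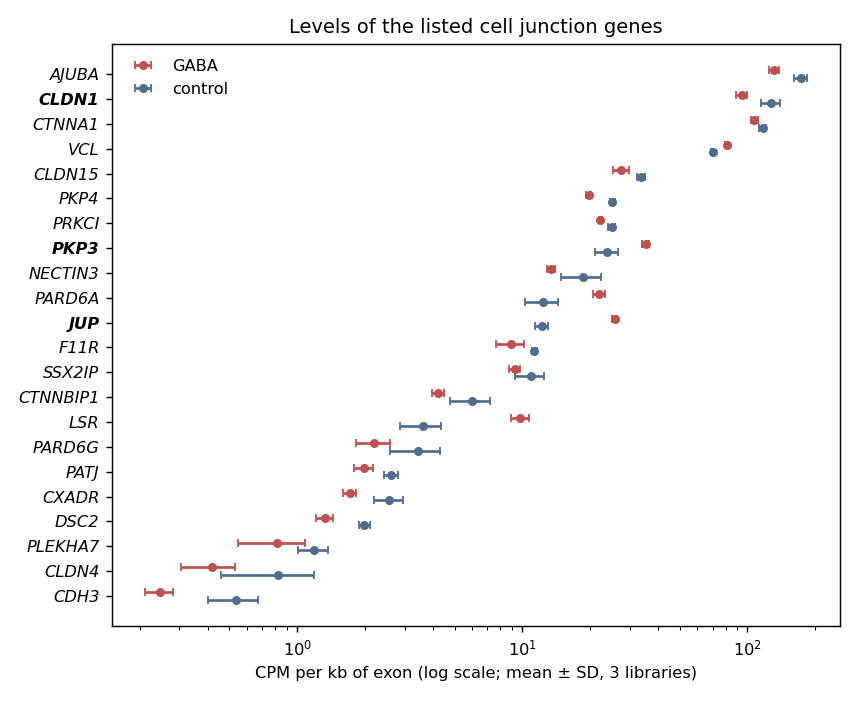
Mean level (CPM per kb of exon, log scale) of 22 listed cell junction genes with GABA (red) and in controls (blue), ± SD of 3 libraries each, ordered from top to bottom by the control level; JUP, PKP3 and CLDN1 are in bold. CLDN1 lay near the top in both groups, and JUP stood at 25.8 CPM per kb with GABA and 12.2 in controls.

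Most partners of the 3 genes are not among the listed genes, and those listed were mostly lower with GABA. Of 98 genes on those 4 lists, 22 were listed and tested with edgeR's quasi-likelihood test (Benjamini-Hochberg adjusted p under 0.05 over all tested genes). Leaving out JUP, PKP3 and CLDN1, 15 of the other 19 fell, 3 rose and 1 did not pass. Their median log2 fold change was -0.39, where all tested genes had a median of -0.18. Among absolute values of all tested genes, 0.12 was the smallest and 0.28 the lower quartile, so -0.18 is not a typical change. Of all tested genes, 98.7% passed, with 47.6% higher and 51.2% lower, so passing the test carries little information here. The adjustment covers only listed genes, whose order follows this comparison. An adjusted p here is therefore not a false discovery rate over all genes. Which direction was more frequent depended on the setting: 2369 genes were higher and 2549 lower, against 2371 and 1953 with DESeq2 and 2373 and 2050 with its size factors in edgeR, and more genes were higher than lower when any GABA library or control replicate 1 was left out. Under each of these settings 5 junction genes were higher, and 11 to 13 were lower. Counting JUP, PKP3 and CLDN1, 5 were higher and 16 lower, against 5 and 15 without control replicate 3, and the groups did not overlap in 18 of the 22, a smaller share than the 92.5% of all tested genes.

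Of 14 desmosome genes, 4 were listed. DSC2, a desmosomal cadherin, had 18.1, 16.5 and 15.1 CPM with GABA, against 24.6, 26.3 and 23.5 CPM in controls, and fell (log2 fold change -0.58 ± 0.13, SE; edgeR adjusted p = 0.0021). PKP4, a plakophilin relative found at desmosomes and adherens junctions, had 192, 189 and 183 CPM with GABA and 239, 246 and 234 CPM in controls, and fell as well (-0.35 ± 0.06; edgeR adjusted p = 6.7e-04). The groups overlapped in neither gene. The 4 desmosome genes thus went both ways, with JUP and PKP3 above 0 and the cadherin and PKP4 below. DSP, which encodes desmoplakin, and the desmogleins are not among the listed genes.

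Of 25 genes on the claudin list, the claudin-like TMEM114 included, 3 were listed. All 3 lay below 0, where 51.2% of all tested genes were lower, and CLDN1 was chosen on this contrast. CLDN15, which forms ion-permeable claudin strands, had 86.8, 76.9 and 74.7 CPM with GABA and 95.5, 102 and 95.1 CPM in controls (log2 fold change -0.30 ± 0.09; edgeR adjusted p = 0.0082). CLDN4 had 2.57, 1.55 and 1.77 CPM with GABA and 3.88, 5.57 and 2.16 CPM in controls (-0.97 ± 0.36; edgeR adjusted p = 0.023), with overlapping groups. Its call was lost without GABA replicate 2 (edgeR adjusted p = 0.077), GABA replicate 3 (0.072) or control replicate 2 (0.12). CLDN1 was thus by far the claudin with the most counts among those listed.

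In the tight junction scaffold list, 7 of 36 genes were listed, of which 5 fell and 2 rose. PARD6A, a polarity adaptor, rose by 0.83 ± 0.14 (32.6 ± 1.93 CPM with GABA and 18.3 ± 3.08 CPM in controls; edgeR adjusted p = 3.8e-04). PATJ, a scaffold of the Crumbs polarity complex, fell (-0.40 ± 0.12; edgeR adjusted p = 0.0094). F11R, the adhesion molecule JAM-A, had -0.34 ± 0.11 (edgeR adjusted p = 0.013), and its call was lost without GABA replicate 2 (0.065) or 3 (0.051). PRKCI, an atypical protein kinase C of the polarity complex, had -0.17 ± 0.07 (edgeR adjusted p = 0.029) and did not pass in 6 of 15 alternatives, with adjusted p between 0.022 and 0.13. Those 6 included leaving out GABA replicate 1, 2 or 3 or control replicate 1. LSR, a membrane protein of tricellular contacts named after its values were seen, had 27.9, 31.4 and 26.3 CPM with GABA and 9.59, 13.1 and 9.03 CPM in controls, and rose by 1.43 ± 0.16 (edgeR adjusted p = 3.2e-05). OCLN, which encodes occludin, and TJP1, which encodes ZO-1, are not among the listed genes.

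The adherens junction list had 8 of 23 genes listed, with 6 lower, 1 higher and 1 not passing. VCL, the actin linker vinculin, rose by 0.22 ± 0.06 (812 ± 19.4 CPM with GABA and 699 ± 13.8 CPM in controls; edgeR adjusted p = 0.0048). AJUBA fell (-0.39 ± 0.07; edgeR adjusted p = 4.8e-04), and so did NECTIN3, a nectin adhesion molecule (-0.46 ± 0.12; edgeR adjusted p = 0.0047). CTNNA1, the alpha-catenin that binds plakoglobin and beta-catenin, had -0.12 ± 0.06 (edgeR adjusted p = 0.060), the smallest absolute value of the 4981 tested genes. CDH1 and CTNNB1, which encode E-cadherin and beta-catenin, are not among the listed genes.

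**Figure D4:**
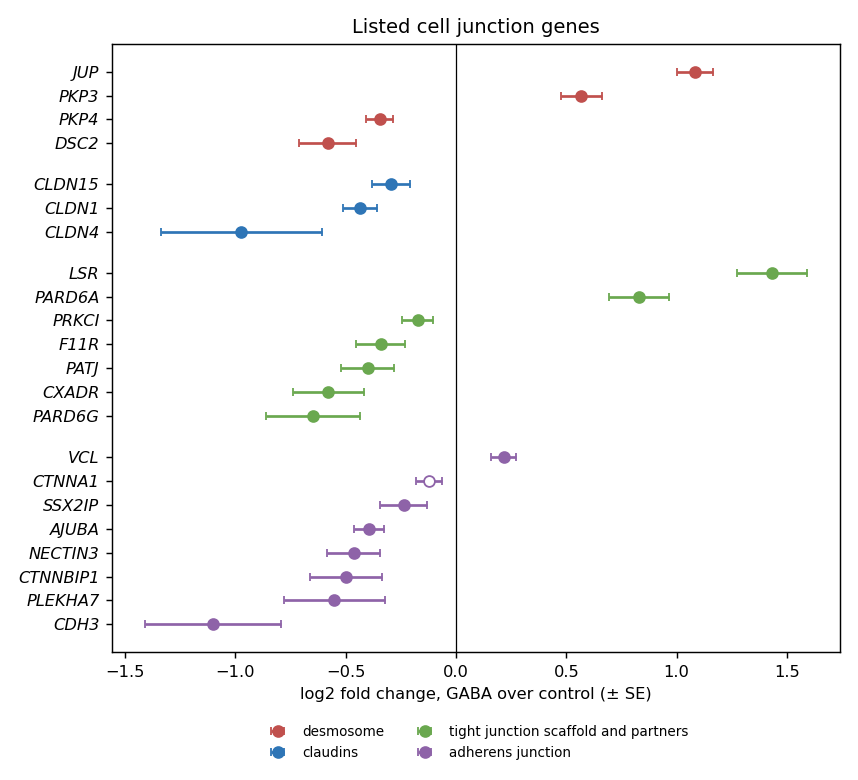
Log2 fold change, GABA over control (± SE of the edgeR fit, 3 libraries per group), of 22 listed genes of 4 cell junction lists, coloured by list; filled points passed an adjusted p under 0.05 and the open point (CTNNA1) did not. JUP and PKP3 lay above 0 and CLDN1 below, and of the other 19 genes LSR, PARD6A and VCL lay above 0.

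Keratins are the filaments that desmosomes anchor. Of 19 epithelial keratins 6 were listed, of which 3 rose, 2 fell and 1 did not pass. KRT19 rose by 0.36 ± 0.06 (edgeR adjusted p = 4.3e-04). KRT8 and KRT18, the keratin pair of hepatocytes, had 0.21 ± 0.09 (edgeR adjusted p = 0.038) and -0.21 ± 0.09 (edgeR adjusted p = 0.034), in opposite directions. Both have many near-copies, and they overlap on opposite strands, so with the strand setting unknown their counts are uncertain. The KRT8 call was lost without GABA replicate 1 (0.063), 2 (0.066) or 3 (0.15), and the KRT18 call without GABA replicate 1 (0.15) or 2 (0.11) or control replicate 1 (0.19) and with 3 other settings. KRT80, another keratin, did not pass at -0.15 ± 0.07 (edgeR adjusted p = 0.061), but did without control replicate 3 (2.9e-04). All 3 listed genes of the hemidesmosome list, which anchors cells to the matrix, rose: ITGA6 by 0.38 ± 0.06, DST by 0.49 ± 0.06 and LAMB3 by 0.50 ± 0.06 (edgeR adjusted p = 3.3e-04, 5.1e-05 and 7.8e-05). Among all tested genes 47.6% were higher. Of the gap junction list, GJC1, a connexin, rose by 0.49 ± 0.06 (edgeR adjusted p = 7.9e-05), and PANX2, a pannexin, had -0.47 ± 0.16 (edgeR adjusted p = 0.016), which was lost without GABA replicate 1 (0.056) or 2 (0.060) or control replicate 1 (0.081).

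CLDN1 acts with other membrane proteins in the entry of hepatitis C virus, for which Huh7 cells are a common host. Among the listed entry factors, TFRC, the transferrin receptor, had 432 ± 7.44 CPM with GABA and 348 ± 22.7 CPM in controls and rose by 0.31 ± 0.07 (edgeR adjusted p = 0.0017), and so went against CLDN1. EPHA2, a receptor kinase, had 0.18 ± 0.07 (edgeR adjusted p = 0.025), lost without GABA replicate 1 (0.095) or 2 (0.079) or control replicate 1 (0.070). OCLN and CD81, which are also receptors of the virus, are not among the listed genes.

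Of 22 regulators known to act on junction genes, transcription factors and splicing proteins, 3 were listed. ESRP2, an epithelial splicing regulator, had 5.96 ± 0.12 CPM with GABA and 2.20 ± 1.01 CPM in controls (log2 fold change 1.44 ± 0.29; edgeR adjusted p = 0.0013). ZEB1, a repressor of epithelial genes, had 0.27 ± 0.10 (edgeR adjusted p = 0.023), and TCF3, which binds E-boxes, had -0.22 ± 0.09 (edgeR adjusted p = 0.028). Neither call was stable: ZEB1 did not pass without GABA replicate 2 (0.058) or 3 (0.085) or control replicate 1 (0.075) or 2 (0.085), and TCF3 without GABA replicate 1 (0.085), 2 (0.081) or 3 (0.054) or control replicate 1 (0.13) or 2 (0.058). The TCF3 call was also lost with DESeq2 (adjusted p = 0.072) and with its size factors in edgeR (0.064), 7 of 15 alternatives in all.

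The genes whose pattern over the 6 libraries was most like each member were found by the root mean square difference of centred log2 CPM among 4304 other genes averaging 10 CPM or more. For JUP they were DHCR7 (0.064), which makes the last step of cholesterol synthesis, the metalloproteinase inhibitor TIMP3 (0.065) and the separase gene ESPL1 (0.080), with log2 fold changes of 1.01, 0.97 and 1.00. For PKP3 they were RANGAP1 (0.026), which activates the Ran GTPase, the alanyl-tRNA synthetase AARS1 (0.031) and the glucose-6-phosphate transporter SLC37A4 (0.033), with 0.59, 0.52 and 0.63. For CLDN1 they were FAM172A (0.032), the noncoding LINC02535 (0.037) and GCA (0.044), with -0.45, -0.41 and -0.37. Neither plaque gene was among the 3 nearest of the other. The measure keeps the size of a change, so their unlike fold changes set them apart whatever else they share. The likeness mainly follows the group difference, which nearly all listed genes share in one direction or the other.

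Of the 6 protein-coding genes next to the members on their chromosomes, 3 were listed and all rose, where 47.6% of all tested genes were higher. So few genes do not describe the regions. P3H4, a prolyl 3-hydroxylase family member next to JUP at a distance of 15015 bases, had 151 ± 5.84 CPM with GABA and 113 ± 11.6 CPM in controls (0.41 ± 0.09; edgeR adjusted p = 0.0015). B4GALNT4, a glycosyltransferase 10497 bases before PKP3, had 37.8 ± 6.96 CPM with GABA and 29.3 ± 4.48 CPM in controls (0.37 ± 0.15; edgeR adjusted p = 0.032), with overlapping groups. P3H2, a collagen prolyl 3-hydroxylase, lies 183263 bases downstream of CLDN1. Its level was 173 ± 5.11 CPM with GABA and 134 ± 10.2 CPM in controls (0.36 ± 0.08, edgeR adjusted p = 0.0015), and so went against CLDN1.

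Markers of other epithelial and stromal cells were also read. Of 6 biliary markers KRT19 and SOX9 were listed, SOX9 with 0.94 ± 0.06 (edgeR adjusted p = 8.5e-07), and their summed level was 1991 to 2146 CPM with GABA and 1382 to 1452 CPM in controls. Of 7 fibroblast markers COL3A1 (0.66 ± 0.13; edgeR adjusted p = 0.0014) and PDGFRB (-0.99 ± 0.13; edgeR adjusted p = 1.1e-04) were listed and went opposite ways, with a sum of 48.1 to 54.3 CPM with GABA and 52.4 to 68.4 CPM in controls. None of 7 squamous markers is a listed gene. The part of any of these in the levels of JUP, PKP3 and CLDN1 was not tested.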

How the data were processed

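RNA was sequenced from 3 GABA and 3 control libraries of Huh7 cells. The authors deposited raw counts per Ensembl gene, per the file headers. Tools named are Bowtie 0.12.2 and CASAVA 1.8, with build hg38, per the submitters' processing notes. The counting program, annotation, strand setting and choice of the 5187 listed genes are not given in the sources used here. For 5173 identifiers the symbol was read from a table of gene names, and for 14 from GENCODE 29. Coordinates and exon lengths are GENCODE 29 on the same build, and promoter sequences are from RefSeq (GRCh38.p14).

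GABA was tested against control over all listed genes with edgeR 4.0.16 in R 4.3.3 (filterByExpr with minimum count 10 and minimum total 15, TMM, robust quasi-likelihood F test, Benjamini-Hochberg adjustment, threshold 0.05). The filter left 4981 genes and removed 206. CPM is scaled to counts on listed genes, not to library depth. Each p-value sets the group difference against the variation between libraries of 1 line. Dispersions and the adjustment use listed genes only, so adjusted p-values are not false discovery rates over all genes. DESeq2 1.42.0, limma 3.58.1 (voom), other scalings and filters, the replicate block and leaving out each library were alternatives. The scripts were tested on simulated data. Depth limits genes of few counts such as CLDN4 most.

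Members and gene lists were chosen with earlier results of these data known. Genes named besides the members were all listed genes of lists with 4 or fewer, otherwise the 4 with the highest mean CPM, plus CDH1, CTNNB1, DSP, OCLN and TJP1, the nearest patterns and chromosomal neighbours. LSR, PLEKHA7 and SSX2IP fall outside this rule, and 1 gene that it names is not reported here. No libraries agreed within sampling noise (chi-square per degree of freedom 2.70 to 25.7 between libraries of a group), and all 6 were used.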

Additional observations from a re-analysis of the deposited data

How the results depend on the processing

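Over 15 alternatives the log2 fold change of JUP ran from 1.03 to 1.13, that of PKP3 from 0.48 to 0.65 and that of CLDN1 from -0.50 to -0.36. Listed genes differ in this same contrast, so stable directions were largely fixed beforehand. The count of passing genes ran from 4324 (DESeq2) to 5131 (no filter). Leaving out 1 library gave 4025 to 4735, and 16 to 20 of the junction genes. Of the junction genes, 5 were higher in each alternative, and the lower ones ran from 11 to 16. Of the 15 that fell besides CLDN1, SSX2IP (named after its values were seen, like PLEKHA7) passed in 5 of 15 alternatives, PRKCI in 9 and PLEKHA7 in 10. With the replicate block, 4823 genes passed in all and 20 of the junction genes. Same-numbered libraries did not deviate together (correlations 0.00033, -0.089 and -0.036), and the labels do not pair them.

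Per kb of the longest transcript, an alternative added after the data were seen, levels were 36.4 with GABA and 17.2 in controls for JUP, 47.6 with GABA and 32.1 in controls for PKP3, and 99.2 with GABA and 134 in controls for CLDN1. The order of the genes was the same, and the shorter lengths raise the levels by construction. The listed genes hold hardly any that did not pass, so no setting shows how the 3 genes stand among unchanged genes.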

Other observations

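Plakoglobin is related to beta-catenin, so target genes of beta-catenin were read as well. Of 14 such genes 3 were listed, of which 2 rose and 1 fell, where 47.6% of all tested genes were higher and 51.2% lower. DKK1, a secreted Wnt inhibitor, had 2450 ± 82.2 CPM with GABA and 1667 ± 47.2 CPM in controls (SD, n = 3 each; log2 fold change 0.56 ± 0.06, edgeR adjusted p = 2.3e-05). TBX3, a transcription factor, had 143 ± 7.40 CPM with GABA and 76.6 ± 3.00 CPM in controls (0.90 ± 0.08, edgeR adjusted p = 5.4e-06). ZNRF3, a ubiquitin ligase that removes Wnt receptors, had 24.5 ± 1.97 CPM with GABA and 33.8 ± 1.83 CPM in controls (-0.47 ± 0.11, edgeR adjusted p = 0.0035). AXIN2 and LGR5 are not among the listed genes. The part of JUP in these levels was not tested.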
